A study of Mus musculus with 8 samples.

Results

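The 10 genes Dusp1, Dusp2, Dusp4, Dusp5, Dusp6, Zfp36, Zfp36l1, Btg1, Btg2 and Ier3, feedback regulators of growth and inflammatory signalling, were followed in single cells of mouse lung tumors. They were found by symbol, 10 of the 27923 genes in each of the 8 UMI tables, and their UMIs were summed per cell class and per library, each gene apart. The genes were selected on their values in border and Whole Tumor cells of these data, so the levels of border against whole are a description here and carry no test.

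The study used Seq-Well, a microwell method that tags each mRNA molecule with a unique molecular identifier (UMI), on 2 autochthonous KP lung tumors (with p53fl/fl among their Cre-dependent alleles), called Tumor 1 and Tumor 2. The mice were chimeras made from KP embryonic stem cells in C57BL/6 blastocysts, and as adults they received Adeno-SPC-Cre through the trachea, an adenovirus whose surfactant protein C promoter directs Cre to alveolar type II cells; tumors were collected after they had grown in the lung. Slices of each tumor were stained with calcein NVOC, a caged dye that light uncages, and the Healthy/Tumor Border cells were photoactivated and sorted on that dye and on calcein violet, a viability dye. The Whole Tumor cells, run on 3 arrays per tumor, were not photoactivated. Each tumor came from 1 mouse, of 1 male and 1 female mouse in all, and gave 1 border library, so tumor, mouse and sex cannot be told apart, the border has no replicate, and the 3 arrays measure technical spread.

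Cells with at least 200 genes, 3894 of 4343 barcodes, were assigned to a class by the number of different marker genes with a UMI, at least 2 and more than for any other class. No member was used as a marker. The 1717 neutrophil-like cells were led by S100a9, S100a8, G0s2, Mmp9 and Hdc, and formed the largest class. Their levels of the members, in UMIs per 1000000 UMIs of the class in that library (CPM), rest on 107185 to 1052520 UMIs per library. Among them, cells with more markers of the Siglec-F-type (Siglec5, Ffar2, Rab15, Entpd3, Ltc4s) than of the mature-type (among them Retnlg, Hdc, Asprv1, Mmp8 and Cxcr2), or the reverse, were also taken apart. Array 2 of Whole Tumor 2 was shallow, with a median of 592 UMIs per neutrophil-like cell against 1762 to 2449 in the other 7 libraries. In all 8 tables, the number in the cell names is that of the tumor which the label does not name. The labels were used: under them, the barcodes of each tumor and region are as many as the cells the study gives for it. Border and arrays of 1 tumor carry the same number either way. Of the barcodes, 10 occurred in more than 1 library.

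Mitogen-activated protein kinases such as ERK, p38 and JNK carry growth and stress signals, and the genes they switch on include their own brakes. Dual-specificity phosphatases (DUSPs) strip the activating phosphates from these kinases. Zfp36 (tristetraprolin) and Zfp36l1 bind AU-rich elements in the 3′ UTR of cytokine mRNAs and bring about their decay, Btg1 and Btg2 are antiproliferative proteins that recruit the deadenylase complex, and Ier3 is an immediate early gene that acts in survival and ERK signalling. In neutrophils and macrophages these genes are induced within a short time by inflammatory stimuli.

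The sequences through which such genes are known to be switched on and off are shown for 4 members, Dusp1, Btg2, Zfp36 and Ier3, as examples of the motifs that were found. Promoters were read from RefSeq (GRCm38.p6, 250 bases before to 50 after the transcription start), in which 9 of the 10 members were found, and mRNA sites from GENCODE vM21, both on the genome of the mm10 build. Dusp1 (chr17:26505590-26562128, minus strand) and Btg2 (chr1:134075170-134079120, minus strand) held the full cyclic AMP response element TGACGTCA, searched on both strands, which was in 1.79% of the 32851 promoters. Its core TGACGT, which lies inside the full element, was in 4 of the 9 member promoters (Dusp1, Btg2, Btg1 and Dusp5) and in 7.51% of all. The CArG box bound by serum response factor was in those of Zfp36 (chr7:28376784-28380253, minus strand) and Dusp5 (chr19:53529109-53542431, plus strand), against 1.63% of all, and a match to the NF-kB motif was in that of Ier3 (chr17:35821684-35822923, plus strand), against 4.51% of all. The AP-1 motif TGANTCA was in that of Zfp36l1 (chr12:80107754-80113013, minus strand), against 7.81% of all. Gene positions are from the GENCODE annotation. The span of Dusp1 includes a transcript that starts far upstream, and the promoter used for it is that of the shorter main transcript, inside this span. Of the other members, Btg1 lies at chr10:96617006-96622809, Dusp6 at chr10:99263231-99267489, Dusp2 at chr2:127336159-127338376 and Dusp4 at chr8:34807297-34819894, all on the plus strand. In the promoters of Dusp1 (chr17:26508423-26508722), Btg2 (chr1:134079106-134079405), Zfp36 (chr7:28379179-28379478) and Ier3 (chr17:35821463-35821762), written on the strand of the gene, capitals mark the matches to these motifs.

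Dusp1: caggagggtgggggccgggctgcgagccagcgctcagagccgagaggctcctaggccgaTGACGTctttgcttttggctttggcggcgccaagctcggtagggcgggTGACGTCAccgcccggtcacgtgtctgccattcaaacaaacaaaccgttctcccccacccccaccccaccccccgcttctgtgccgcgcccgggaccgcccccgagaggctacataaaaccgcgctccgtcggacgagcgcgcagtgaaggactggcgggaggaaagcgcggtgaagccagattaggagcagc
Btg2: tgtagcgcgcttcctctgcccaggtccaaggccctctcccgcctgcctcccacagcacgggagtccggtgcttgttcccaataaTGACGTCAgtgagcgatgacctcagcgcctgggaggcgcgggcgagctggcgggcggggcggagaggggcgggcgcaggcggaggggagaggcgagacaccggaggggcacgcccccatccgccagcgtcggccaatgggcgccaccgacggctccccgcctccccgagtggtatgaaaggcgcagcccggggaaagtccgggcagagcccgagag
Zfp36: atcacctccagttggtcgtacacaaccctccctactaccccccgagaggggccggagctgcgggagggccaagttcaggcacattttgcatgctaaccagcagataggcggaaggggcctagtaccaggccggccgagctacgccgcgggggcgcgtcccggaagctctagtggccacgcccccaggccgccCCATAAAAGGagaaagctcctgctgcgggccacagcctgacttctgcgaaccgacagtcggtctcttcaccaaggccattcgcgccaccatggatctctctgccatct
Ier3: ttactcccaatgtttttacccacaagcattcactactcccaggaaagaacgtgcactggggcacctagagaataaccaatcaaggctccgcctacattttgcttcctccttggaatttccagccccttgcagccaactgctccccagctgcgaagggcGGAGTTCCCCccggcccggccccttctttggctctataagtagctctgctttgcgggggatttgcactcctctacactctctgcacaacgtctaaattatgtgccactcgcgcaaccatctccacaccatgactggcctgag

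A match is a description of the letters and was not tested as a site. The AU-rich heptamer TATTTAT, the core of the element that Zfp36 proteins bind, was looked for in the 3′ UTR of 1 principal transcript per gene. It was in 26.7% of 20263 protein-coding genes and in 6 of the 10 members (Dusp1, Dusp2, Zfp36, Zfp36l1, Btg2 and Ier3). Ier3 held it 4 times, and Dusp1, Zfp36 and Zfp36l1 each 3 times, while 3.83% of genes held it 3 or more times. The 29 bases around a heptamer, in capitals and on the strand of the mRNA, are shown for Ier3 (chr17:35822481-35822509), Dusp1 (chr17:26506159-26506187), Zfp36 (chr7:28376966-28376994) and Btg2 (chr1:134077249-134077277), since these mRNAs of regulators carry the sequence that Zfp36 is known to bind.

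Ier3 3′ UTR: tgtctaattaaTATTTATgTATTTATgta
Dusp1 3′ UTR: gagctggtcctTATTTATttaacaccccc
Zfp36 3′ UTR: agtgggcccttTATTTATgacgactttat
Btg2 3′ UTR: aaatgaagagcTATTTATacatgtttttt

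The first question was what the regulators did in neutrophil-like cells of the Healthy/Tumor Border and of the Whole Tumor. In Tumor 1, most members were higher at the border than in every array, and in Tumor 2 most were lower at the border than in every array. The same cells of the 2 Whole Tumors also differed from each other: for Dusp1, Zfp36, Btg1, Btg2 and Ier3 the 3 arrays of Whole Tumor 1 were below the 5 other libraries. Border values are given with exact Poisson 95% intervals, which cover counting error only, and array values as mean ± SD (n = 3 arrays).

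**Figure D1:**
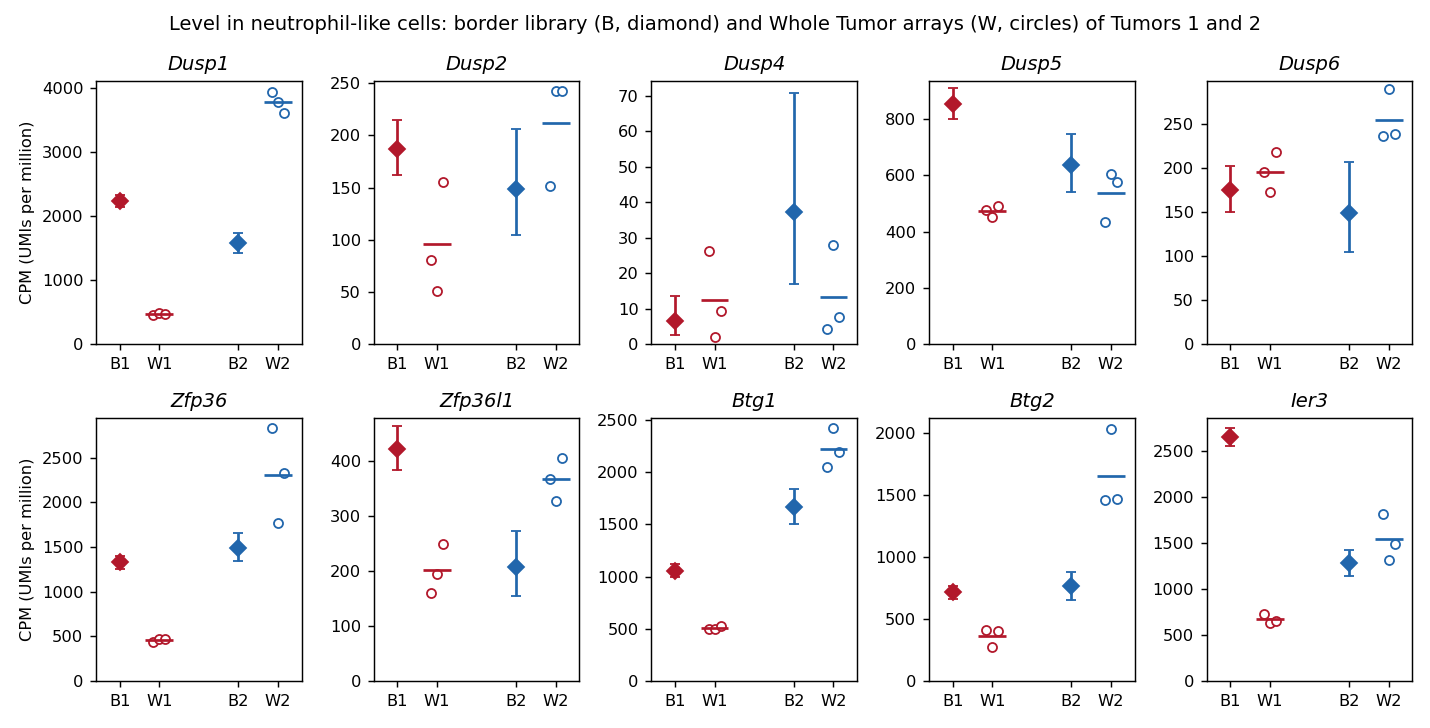
Level of each member in neutrophil-like cells, in CPM on a linear axis from 0. Diamonds are the border library of Tumor 1 (B1) and Tumor 2 (B2) with Poisson 95% intervals, circles the 3 Whole Tumor arrays (W1, W2), and short lines their means; Dusp1 lay at 2237 CPM in B1 against at most 489 in W1, and at 1575 in B2 against at least 3604 in W2.

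Among the phosphatases, Dusp1 acts in the nucleus on p38, JNK and ERK, and its change was the widest of the members. In Tumor 1 Dusp1 was 2237 CPM at the border (2147 to 2329) and 449, 489 and 469 CPM in the arrays. The border was above all 3 arrays, at 4.77-fold the mean of the arrays (469 ± 20.1). In Tumor 2 Dusp1 was 1575 CPM at the border (1420.4 to 1741) and 3932, 3779 and 3604 CPM in the arrays, which put the border below all 3 arrays, at 2.39-fold below the mean of the arrays (3771 ± 164). The 4 groups of libraries did not overlap for Dusp1: Whole Tumor 1 was lowest, then the border of Tumor 2, the border of Tumor 1, and Whole Tumor 2.

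Dusp5, a nuclear phosphatase that is specific for ERK, was above the arrays at the border of both tumors. The border of Tumor 1 had 854 CPM of Dusp5 (799 to 912) against 477, 451 and 492 CPM in the arrays, and that of Tumor 2 had 638 CPM (541 to 747) against 435, 606 and 577 CPM. Its excess over the array mean was 1.80-fold in Tumor 1 and 1.18-fold in Tumor 2, and in Tumor 2 the counting interval of the border reached into the range of the arrays. Dusp6, the cytoplasmic phosphatase of ERK, was within the arrays in Tumor 1 and below them in Tumor 2. The border of Tumor 1 had 175 CPM of Dusp6 (150.5 to 202) against 196, 173 and 218 CPM in the arrays, and that of Tumor 2 had 149 CPM (104 to 207) against 236, 289 and 238 CPM. It was the only member with no excess at the border of Tumor 1 among the 9 with at least 50 UMIs. Dusp2, a nuclear phosphatase of immune cells, had few UMIs. The border of Tumor 1 had 187 CPM of Dusp2 (162 to 215) against 81.1, 50.7 and 155 CPM in the arrays, and that of Tumor 2 had 149 CPM (104 to 207) against 152, 243 and 242 CPM. The counting interval of its border value in Tumor 2 spanned the lowest array. Dusp4, a nuclear phosphatase that is related to Dusp1, was nearly silent in these cells, from 2.16 to 37.3 CPM over the 8 libraries, and did not reach 50 UMIs in either tumor.

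Of the mRNA decay factors, Zfp36 was lowest in Whole Tumor 1 and highest in Whole Tumor 2, with the borders between them. In Tumor 1 Zfp36 was 1326 CPM at the border (1258 to 1398) and 437, 470.3 and 471 CPM in the arrays. The border was above all 3 arrays, at 2.89-fold the mean of the arrays (459 ± 19.6). In Tumor 2 Zfp36 was 1492 CPM at the border (1342 to 1654) and 2826, 1773 and 2331 CPM in the arrays, which put the border below all 3 arrays, at 1.55-fold below the mean of the arrays (2309.9 ± 527). The arrays of Whole Tumor 2 were spread more widely than those of Whole Tumor 1, and the border of Tumor 2 was still below the lowest. Zfp36l1, its close relative, was above the arrays at the border of Tumor 1 and below them at that of Tumor 2. The border of Tumor 1 had 422 CPM of Zfp36l1 (384 to 463) against 159.8, 195 and 248 CPM in the arrays, and that of Tumor 2 had 207 CPM (154 to 273) against 367, 327 and 405 CPM.

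Btg1, known for its high level in resting lymphocytes, was steady among arrays of 1 tumor. In Tumor 1 Btg1 was 1053 CPM at the border (992 to 1117) and 501, 494 and 522 CPM in the arrays. The border was above all 3 arrays, at 2.08-fold the mean of the arrays (506 ± 14.5). In Tumor 2 Btg1 was 1666 CPM at the border (1507 to 1837) and 2050.2, 2426 and 2193 CPM in the arrays, which put the border below all 3 arrays, at 1.33-fold below the mean of the arrays (2223 ± 189.6). Btg2, a p53 target and immediate early gene, had the same order of the 4 groups as Zfp36, with Whole Tumor 1 lowest, the borders between and Whole Tumor 2 highest. The border of Tumor 1 had 714 CPM of Btg2 (663 to 766) against 413, 274 and 404 CPM in the arrays, and that of Tumor 2 had 763 CPM (656 to 881) against 1455, 2034 and 1465 CPM.

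Ier3, like Dusp5 and Zfp36l1, had its highest level of all 8 libraries at the border of Tumor 1. In Tumor 1 Ier3 was 2654 CPM at the border (2556 to 2754) and 728, 628 and 652 CPM in the arrays. The border was above all 3 arrays, at 3.97-fold the mean of the arrays (669 ± 52.1). In Tumor 2 Ier3 was 1276 CPM at the border (1138 to 1427) and 1809.7, 1315 and 1493 CPM in the arrays, which put the border below all 3 arrays, at 1.21-fold below the mean of the arrays (1539 ± 250.4). In Tumor 2 the counting interval of the border reached into the range of the arrays.

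Counted over the 9 members with at least 50 UMIs, the border of Tumor 1 was above all 3 arrays in 8, while 12.5% of 5723 genes were, and 5 of the 9 (Dusp1, Zfp36, Zfp36l1, Btg1 and Ier3) passed at least 2-fold, as did 2.27% of genes. Btg1 lay just inside this fold, and Btg2 (1.96-fold) and Dusp2 (1.95-fold) just outside. None was 2-fold lower there, against 25.8% of genes. In Tumor 2, the border was below all 3 arrays in 8 of 9, while 28.3% of 2799 genes were, and 2 of the 9 (Dusp1 and Btg2) passed 2-fold lower, as did 8.61% of genes. None was 2-fold higher in Tumor 2, against 15.8% of genes. The median log2 ratio of the members was 1.06 in Tumor 1, beside -0.55 for all genes, and -0.63 in Tumor 2, beside 0.18 for all genes. Since the members were selected on this contrast, nothing is read from these counts. On the scale of edgeR's TMM factors, which set the bulk of genes near 0, 8 members passed 2-fold higher in Tumor 1 and 4 passed 2-fold lower in Tumor 2, while Dusp6 turned from a log2 ratio of -0.16 to 0.43 in Tumor 1 and Dusp5 from 0.24 to -0.11 in Tumor 2.

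The share of cells with a UMI followed the summed levels of Dusp1 and Ier3 in Tumor 1, but not those of all members in Tumor 2. With each cell thinned to 1000 UMIs, Dusp1 was found in 68.9% of border cells of Tumor 1 and in 29%, 26.0% and 26.2% of cells in its arrays. In Tumor 2 the share was 63.5% at the border and 89.4%, 90.0% and 83.8% in the arrays, of which array 2 kept only 20 of 156 cells at that depth. Unthinned, the share was 77.8% at the border of Tumor 1 and 38.5%, 43.6% and 37.3% in its arrays. Ier3 was found in 74.2% of thinned border cells of Tumor 1 and in 36.6%, 36.7% and 39.7% of those of its arrays (unthinned 82.4% against 48.5%, 49.4% and 56.6%). In Tumor 2 its summed level was below all arrays at the border, but its share there was 59.4% of thinned cells, within the 60%, 55.0% and 54.5% of the arrays, and 72.6% unthinned, above their 61.2%, 42.9% and 70.1%. Dusp1, unthinned, was found in 83.2% of cells at this border, within the 80.2%, 75.0% and 89.6% of the arrays. The thinned shares of Btg1 (78.1% against 76.5%, 70.0% and 81.7%) and Zfp36 (58.3% against 75.3%, 45.0% and 70.2%) lay within the arrays as well, though their summed levels were below all of them. B-like cells were low in Ier3 in these same data, so they are a comparison and no independent background. They had a UMI of Ier3 in 0 of 47 cells at the border and 0 of 46 in array 3 of Tumor 2. These counts allow shares of up to 6.38% and 6.52%, at class medians of 2105 UMIs per B-like and 2066 UMIs per neutrophil-like cell. The border and array 3 hold the B-like sums of the most cells. Of the smaller sums, array 2 of Tumor 2 held 2 UMIs of Ier3 among 10 cells. For Dusp1 there is no such comparison, since B-like cells held it too, in 32.6% and 35.6% of thinned cells of these 2 libraries.

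The makeup of the neutrophil-like class differed between libraries, so both subtypes were looked at apart. Siglec-F-type cells were 38.4% of neutrophil-like cells at the border of Tumor 1 and 41.6% to 57.3% in its arrays, 15.0% at the border of Tumor 2 and 2.39% to 2.56% in the arrays of Whole Tumor 2. Within mature-type cells, Dusp1 was 3009 CPM at the border of Tumor 1 against 947, 896 and 721 CPM, and 1904 CPM at that of Tumor 2 against 4296, 4020.3 and 3940.1 CPM. In these cells too, Dusp1 lay above the arrays of Tumor 1 and below those of Tumor 2. Ier3 in mature-type cells was 3493 CPM against 1591, 1162 and 1012 CPM in Tumor 1, and in Tumor 2 its 1386 CPM lay within the arrays (1972, 1315 and 1626 CPM). Zfp36 was 1841 CPM against 379, 775 and 646 CPM, and 1566 CPM against 3096, 1847 and 2486 CPM, again above and below. Dusp2 in mature-type cells of Tumor 2 lay within the arrays too, 232 CPM against 167, 217 and 269 CPM, so that 5 of the 7 members with opposite directions in all neutrophil-like cells had them in mature-type cells. Of the 9 members, mature-type border cells were 2-fold higher for 6 in Tumor 1 (background 7.88%) and 2-fold lower for 3 in Tumor 2 (background 11.6%). In Siglec-F-type cells of Tumor 1, 5 of 9 were 2-fold higher (background 2.41%), Ier3 at 1923 CPM against 429, 454 and 327 CPM and Dusp1 at 1553 CPM against 322, 341 and 447 CPM.

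**Figure D2:**
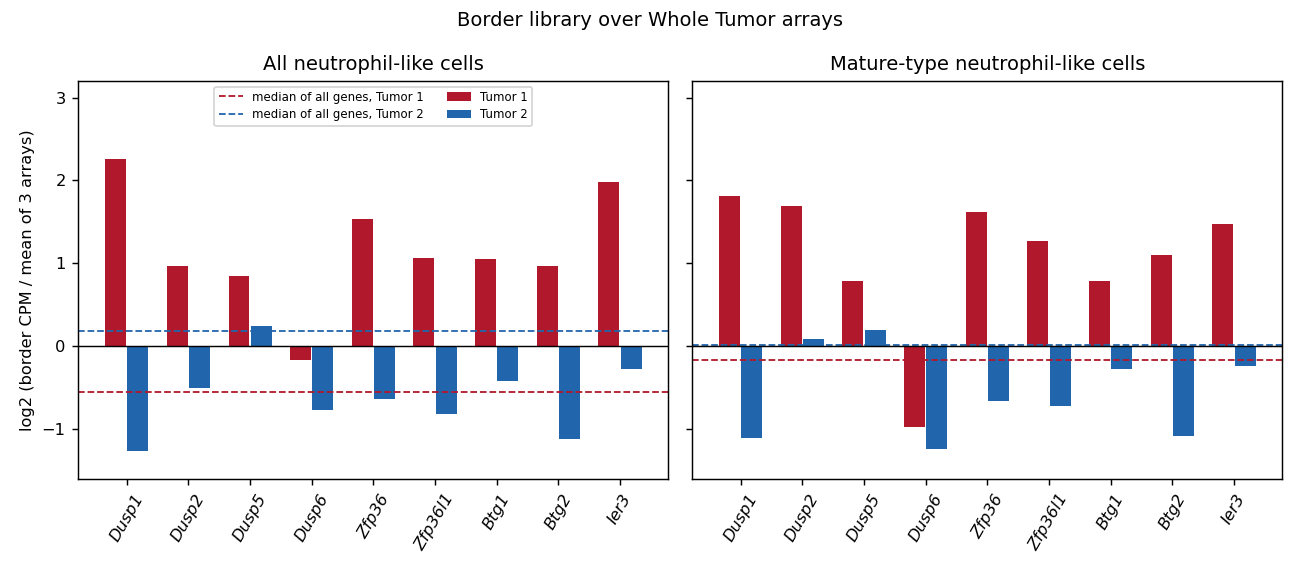
Log2 ratio of the border CPM to the mean CPM of the 3 arrays for 9 members (Dusp4 is left out for its low counts), in all neutrophil-like cells (left) and in mature-type cells (right). Red bars are Tumor 1, blue bars Tumor 2, and dashed lines the median of all genes with at least 50 UMIs; on this scale Dusp1 stands at 2.25 in Tumor 1 and -1.26 in Tumor 2 in all cells, while Dusp6 is negative in both tumors (on the TMM scale it is positive in Tumor 1).

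Other measures of the same libraries are set beside these levels, and not all of them moved with the members. Genes known to rise when tissue is dissociated, summed over a list of 14, made up 334 of 10000 UMIs at the border of Tumor 1 and 241 to 326 in its arrays, 146 at the border of Tumor 2 and 265 to 303 in its arrays. The summed list was thus lower at the border of Tumor 2 than in its arrays, as most members were. The 11 neutrophil markers themselves made up 104 of 10000 UMIs at the border of Tumor 1 and 98.6 to 109.8 in its arrays, and 147 at the border of Tumor 2 against 258 to 298 in its arrays. Dendritic markers, 9 in number, were at 2.40 of 10000 at the border of Tumor 2 and 0.187 to 0.464 in its arrays, with 2 at 0 at the border and 2 to 7 in an array. Mitochondrial UMIs were 3.92% and 5.20% at the borders and 4.30% to 6.68% in the arrays. Satellite transcripts were 14.3 and 22.0 of 10000 at the borders and 4.47 to 15.8 and 8.58 to 44.7 in the arrays of Tumor 1 and Tumor 2. The lists of 7 further classes stayed at or below 2.31 of 10000 in every library. Sort, photoactivation and place differ together between border and whole, so they cannot be told apart, and the part of the measures above was not tested.

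The second comparison, between the arrays of Whole Tumor 1 and Whole Tumor 2 in neutrophil-like cells, leaves out the border but shares the Whole Tumor arrays with the values on which the members were selected. The members' differences are therefore given as a description with no p, and only genes that are no members are tested here, by edgeR's quasi-likelihood test across 5076 genes. All 9 members that passed the filter on low counts were lower in Whole Tumor 1, where 24.2% of all genes were called lower and 21.5% higher at an adjusted p under 0.05, and nothing is read from that count. Dusp4 did not pass the filter. Dusp1 was at 3771 ± 164 CPM in Whole Tumor 2 and 469 ± 20.1 CPM in Whole Tumor 1 (mean ± SD, n = 3 arrays each), a log2 fold change of -3.72 ± 0.16 (SE). Zfp36 was at -3.05 ± 0.19, Btg2 at -2.89 ± 0.20 and Btg1 at -2.84 ± 0.15 on the log2 scale. The arrays of the 2 tumors did not overlap for Dusp1, Dusp6, Zfp36, Zfp36l1, Btg1, Btg2 and Ier3, and overlapped in CPM for Dusp2 and Dusp5. Nearer to 0 were Dusp2 (-1.94 ± 0.32), Ier3 (-1.92 ± 0.17), Zfp36l1 (-1.61 ± 0.20), Dusp6 (-1.07 ± 0.20) and Dusp5 (-0.90 ± 0.17).

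How large these differences are depends on the scaling. With library totals in place of TMM factors, the median of all genes moved from 0.14 to 0.90, and 2809 genes were called higher and 621 lower, in place of 1091 and 1230. On that scale Dusp1 was at -2.97, Zfp36 at -2.30, Btg1 at -2.09 and Ier3 at -1.17, while Dusp5 at -0.14 and Dusp6 at -0.32 were nearer to 0. In mature-type cells alone, an alternative added after the data were seen, Dusp1 was at -2.41 and Ier3 at -0.54. Beside this comparison stand the makeup of the class, given above, and the summed level of its 11 markers, 98.6 to 109.8 of 10000 UMIs in Whole Tumor 1 and 258 to 298 in Whole Tumor 2, with at most 1 marker at 0 in a library. All 14 dissociation genes were tested as well, and 10 were lower and 2 higher in Whole Tumor 1, at a median log2 fold change of -1.55 beside 0.14 for all genes, while their summed level overlapped between the tumors. The 4 farthest below 0, named for their values, were Fosb (-6.30), Fos (-3.96), Nr4a1 (-3.27) and Atf3 (-2.59). The 2 called higher were Hspe1 (1.65) and Hsph1 (1.25), while Hspa1a (0.21) and Hspa1b (0.24) were not called. This list was chosen with earlier results of these data known, so its calls are a description. The part of these measures in the difference was not tested.

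**Figure D3:**
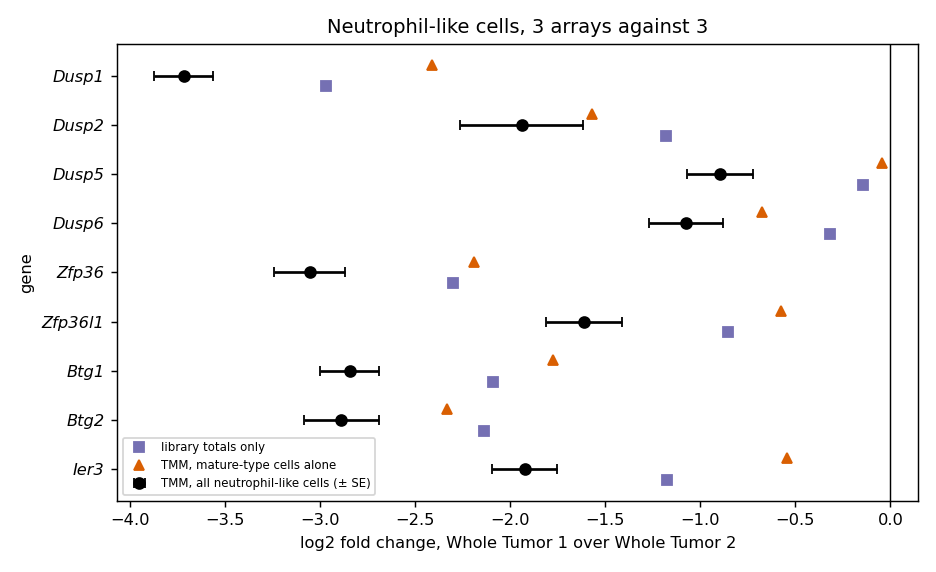
Log2 fold change of Whole Tumor 1 over Whole Tumor 2 in neutrophil-like cells for 9 members. Black points are the TMM-scaled fit with its SE (3 arrays against 3), purple squares the fit on library totals and orange triangles the fit in mature-type cells alone; all values are below 0, with Dusp1 lowest in each fit and Dusp5 nearest to 0.

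The rest of the pathway was read from 3 lists. They were chosen with earlier results of these data known, so their calls and p-values are a description. Between Whole Tumor 1 and Whole Tumor 2, 24.2% of all tested genes were called lower and 21.5% higher in Whole Tumor 1. Of 12 further MAPK phosphatases and ERK brakes, 2 passed the filter in this comparison: Dusp16, a phosphatase of JNK and p38, was lower (273 ± 35.9 CPM in Whole Tumor 1 and 1150.5 ± 126 in Whole Tumor 2; log2 fold change -2.79, adjusted p = 9.1e-10), and Spred1, an inhibitor of Raf activation by Ras, was not called (0.90, adjusted p = 0.13). Dusp3, the next of this list by UMIs, lay at 26.3 ± 20.8 and 11.8 ± 20.4 CPM and was not tested. All 5 tested genes of the list of 7 further AU-rich element, BTG/TOB and IER genes were lower in Whole Tumor 1. They include Ier5 (699.9 ± 59.4 CPM in Whole Tumor 1 and 1373 ± 193 in Whole Tumor 2), the AU-rich element binder Zfp36l2 (387 ± 115 CPM in Whole Tumor 1 and 648 ± 93.2 in Whole Tumor 2) and the immediate early gene Ier2 (191 ± 36.5 CPM in Whole Tumor 1 and 327 ± 61.0 in Whole Tumor 2). Of 16 known targets of Zfp36, 12 were tested, 10 were lower and 1, Il1a, was higher in Whole Tumor 1, at a median log2 fold change of -1.61 beside 0.14 for all genes. Most targets and Zfp36 itself were thus lower in the same tumor, from 1 mouse, and a link between them was not tested. The neutrophil chemoattractant Cxcl2 had 4619.7 ± 483 CPM in Whole Tumor 1 and 15741 ± 2555 in Whole Tumor 2, Il1b, which encodes interleukin 1β, had 4599.9 ± 86.2 CPM in Whole Tumor 1 and 17652 ± 3134 in Whole Tumor 2, and the chemokine Ccl3 had 1840.0 ± 264 CPM in Whole Tumor 1 and 3287 ± 635 in Whole Tumor 2. At the border, Cxcl2 had 21239.5 CPM in Tumor 1 and 14620.4 in Tumor 2, Il1b 5976 and 7720.5, and Ccl3 8949.9 and 3788.

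The third question was where among the cell classes the regulators are found. Classes were compared within the Whole Tumor arrays that hold at least 10 cells of both, with array as a term, so that each array serves as its own control. The neutrophil-like sums of these arrays were among the values that chose the members. The members' log2 values, calls and counts in these comparisons are therefore a description, given with no p. No member but Dusp4 was called higher in another of the classes compared here than in neutrophil-like cells. Dusp4 passed the filter on low counts only in the comparisons with lymphocytes, where it was high, so nothing is read from its call.

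**Figure D4:**
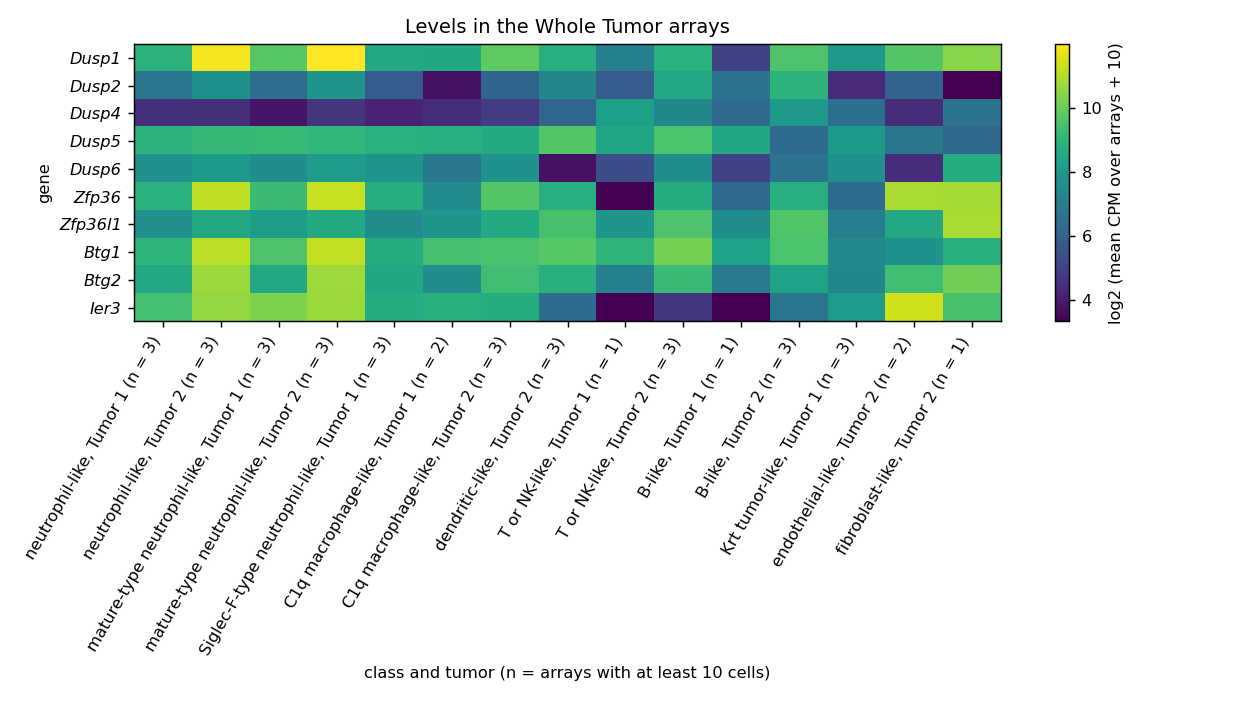
Mean level of each member over the Whole Tumor arrays with at least 10 cells of a class, by class and tumor, coloured as log2 (mean CPM + 10). Among the bright cells are Dusp1, Zfp36 and Btg1 in neutrophil-like cells and Ier3 in endothelial-like cells of Tumor 2; dark cells include Dusp4 in neutrophil-like cells and Ier3 in T or NK-like and B-like cells.

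Against C1q macrophage-like cells, led by the complement genes C1qa, C1qb and C1qc, 5 of 9 tested members were lower than in neutrophil-like cells (background 18.3% of genes) and none was higher (background 17.9%; none at an unadjusted p under 0.05 or by DESeq2). Dusp1 was 581 and 121 CPM in arrays 1 and 2 of Tumor 1, and 1010.5, 653 and 1063 CPM in those of Tumor 2. Set against the neutrophil-like cells of the same 5 arrays, its log2 fold change was -1.81 ± 0.44, with C1q macrophage-like cells lower in 4 of 5 arrays. Zfp36 (-1.64 ± 0.30), Dusp2 (-2.36 ± 0.42), Btg2 (-1.36 ± 0.32) and Ier3 (-1.58 ± 0.42) were lower in 5 of 5 arrays. Zfp36l1 (-0.0031 ± 0.31), Dusp5 (-0.48 ± 0.31), Dusp6 (-0.74 ± 0.34) and Btg1 (-1.02 ± 0.48) were not called. On library totals the median of all genes moved from 0.025 to 0.19, and 5 members were again lower.

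In the 3 arrays of Tumor 2 alone, 8 of the 9 members were called lower. In the 2 arrays of Tumor 1 alone edgeR called 0, with 2 lower at an unadjusted p under 0.05, from a fit that leaves 1 residual degree of freedom. The class difference was then set side by side in the tumors by an interaction of class and tumor, fitted across 4460 genes, of which 7.83% were called. It rests on the low neutrophil-like levels of Whole Tumor 1, which the selection used, so its values for members are a description with no p. Btg1 in C1q macrophage-like cells was 804 and 549.9 CPM in Tumor 1, above the neutrophil-like cells of the same arrays, and 655, 557 and 920.1 CPM in Tumor 2, below them. The difference between the tumors was 2.56 ± 0.42 on the log2 scale (SE). For Ier3 it was 1.87 ± 0.46 and for Dusp1 1.75 ± 0.52, from 2 arrays of Tumor 1 and 3 of Tumor 2. The other 6 of the 9 tested members lay between -1.09 ± 1.31 (Dusp2) and 0.97 ± 0.45 (Btg2). The same interaction for T or NK-like and for B-like cells called 0 of 10 members in edgeR (background 2.95% and 1.22%), with 4 and 1 members at an unadjusted p under 0.05. In both, array 2 is the only array of Tumor 1, so the spread comes from the arrays of Tumor 2 alone. For Ier3 the SE was 4.24 in T or NK-like and 4.93 in B-like cells on the log2 scale. Both fits also use neutrophil-like values that chose the members. The counts therefore cannot show whether these class differences are alike in the tumors, and nothing is read from them.

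In lymphocytes the picture was a different one, since Ier3 was nearly absent and Dusp4 present. T or NK-like cells, led by Icos, Cxcr6 and Il2rb, and B-like cells, led by Igkc, were compared with neutrophil-like cells in array 2 of Tumor 1 and the 3 arrays of Tumor 2. Dusp4 had 286 CPM in T or NK-like cells of Tumor 1 and 149.7, 71.1 and 219 CPM in Tumor 2, and 67.3 CPM and 219, 285 and 247 CPM in B-like cells. In edgeR's fit its log2 fold change over neutrophil-like cells was 4.41 ± 0.78 in T or NK-like and 3.99 ± 0.71 in B-like cells. That is a fitted 21.2-fold and 15.8-fold. Without array 2 of Tumor 1 the value in T or NK-like cells was 3.54, and without array 2 of Tumor 2 it was 5.11. Dusp4 passed the filter on low counts through its lymphocyte sums alone, so nothing is read from its call. With only 11 UMIs of Dusp4 in the neutrophil-like cells of these arrays, the size is uncertain: pooled over the arrays, which differ in level and in cells of each class, the CPM was 36.8-fold higher in T or NK-like cells (95% counting interval 18.9 to 78.3) and 36.0-fold higher in B-like cells (18.3 to 77.3). Of the 10 tested, no member other than Dusp4 was called higher in either class (background 18.5% and 16.8%). Ier3 had 5 UMIs of 237699 in T or NK-like and 2 of 213714 in B-like cells of these arrays, against 2125 in neutrophil-like cells. Its pooled level in neutrophil-like cells was 52.5-fold that in T or NK-like cells (22.5 to 162) and 118-fold that in B-like cells (32.6 to 976), where the fit gave log2 fold changes of -6.77 ± 0.63 and -7.50 ± 0.75. All 5 UMIs of T or NK-like cells came from array 3 of Tumor 2, and both UMIs of B-like cells from its shallow array 2. Without that array, no UMI of Ier3 was left in the class, so the size of these folds rests on it.

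In T or NK-like cells 6 of 10 members were lower than in neutrophil-like cells (background 27.2%), and in B-like cells 7 of 10 (background 28.0%). Dusp1 had 127 CPM in T or NK-like cells of Tumor 1 and 582, 284 and 488 CPM in Tumor 2 (log2 fold change -3.38 ± 0.41), and it was lower in 4 of 4 arrays. Zfp36 (-3.55 ± 0.45), Btg2 (-1.93 ± 0.38), Dusp6 (-1.53 ± 0.44) and Btg1 (-1.33 ± 0.37) were lower as well. Without array 3 of Tumor 2, Dusp6 (-1.35) and Btg1 (-1.16) lost the call, and without array 1 Btg1 did (-1.02). On library totals in place of TMM factors, the median of all genes moved from -0.098 to 0.48 in T or NK-like and from -0.15 to 0.53 in B-like cells. The genes called higher and lower went from 511 and 753 to 809 and 545, and from 540 and 898 to 926 and 631. On that scale Dusp6 (-0.89) and Btg1 (-0.70) also lost the call in T or NK-like cells, while the other 4 members kept it, from -6.11 (Ier3) to -1.28 (Btg2), and all 7 in B-like cells kept it, from -6.77 (Ier3) to -1.29 (Btg1). Btg1, high in lymphocytes by background knowledge, had 492 CPM in T or NK-like cells of Tumor 1 and 915, 1635 and 945 CPM in those of Tumor 2. In B-like cells, the called members were Dusp1 (-3.33 ± 0.46), Zfp36 (-3.16 ± 0.47), Btg2 (-2.61 ± 0.47), Btg1 (-2.06 ± 0.43), Dusp6 (-2.22 ± 0.56), Dusp5 (-2.36 ± 0.50) and Ier3. Dusp5 lay apart in the 2 lymphocyte classes in Tumor 2 but not in Tumor 1: it had 732, 853 and 617 CPM in T or NK-like and 109.7, 0 and 103 CPM in B-like cells of Whole Tumor 2, where 0 UMIs in array 2 allow up to 428 CPM. In array 2 of Tumor 1 it had 333 CPM in T or NK-like and 359 CPM in B-like cells, and at the border of Tumor 2 567 and 289 CPM. This difference was not tested. Zfp36l1 and Dusp2 were called in neither class.

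**Figure D5:**
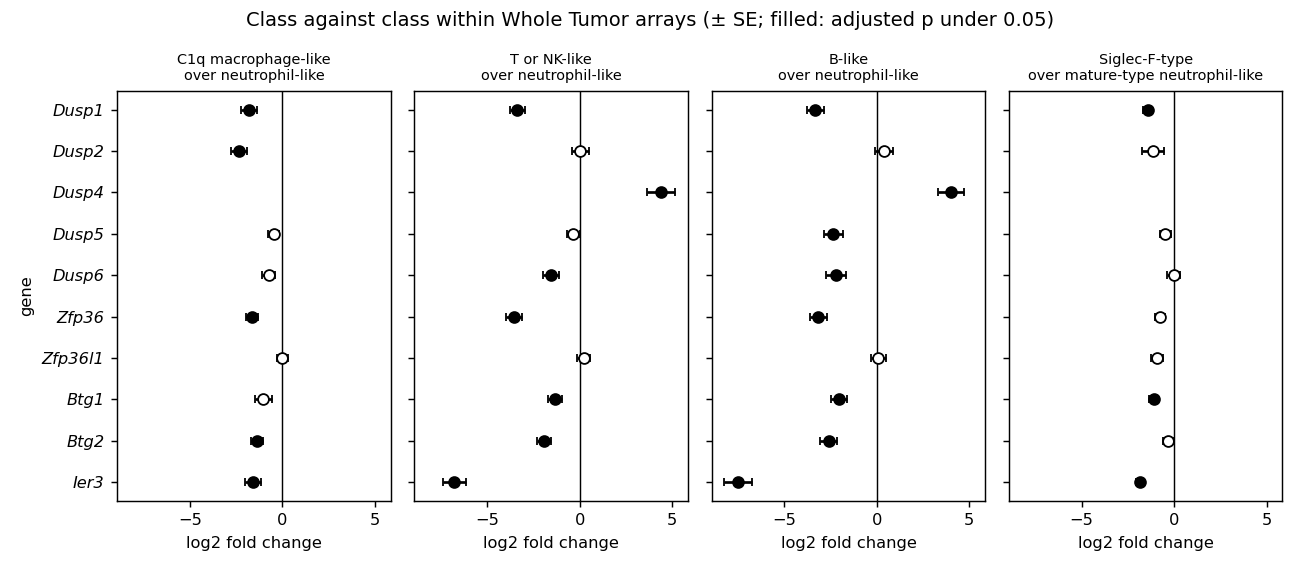
Log2 fold change (± SE) of each member between classes within Whole Tumor arrays, 1 panel per comparison; filled points passed an adjusted p under 0.05 in edgeR's quasi-likelihood test, open points did not, and members that failed the filter or had 0 UMIs in the class are left out. Ier3 lies farthest to the left in lymphocytes and Dusp4 is the one filled point to the right of 0 there. Dusp4 passed the filter through its lymphocyte sums alone, and filled points of members are a description.

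Within neutrophil-like cells of Whole Tumor 1, whose 3 arrays hold both subtypes, Siglec-F-type cells had less of 3 of 9 members than mature-type cells, while 3.03% of genes were called lower and 0.777% higher. No member was higher, also at an unadjusted p under 0.05 and by DESeq2. The sums of these neutrophil-like cells were among the values that chose the members, so the members' calls here are a description with no p. Ier3 had 429, 454 and 327 CPM in Siglec-F-type and 1591, 1162 and 1012 CPM in mature-type cells (log2 fold change -1.84 ± 0.23). Dusp1 had 322, 341 and 447 and 947, 896 and 721 CPM (-1.44 ± 0.24) and Btg1 442, 369.9 and 411 and 682, 848 and 721 CPM (-1.12 ± 0.24). For these 3 the subtypes did not overlap, and the other 6 were not called. On library totals, where the median of all genes moved from 0.0067 to 0.23, 69 genes were higher and 68 lower, against 29 and 113 with TMM factors, and 3 members were again lower. Without array 2, which holds the most Siglec-F-type cells, 1 of the 3 was still called (Ier3), while Dusp1 (-1.33) and Btg1 (-0.93) kept their direction and lost the call.

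In other classes of Tumor 2, the border could be set beside the arrays for C1q macrophage-like cells (138 border cells). There Dusp2 was higher at the border, 175 CPM (146 to 208) against 88.9, 38.4 and 51.0 CPM, the 1 member past 2-fold (background 7.00%; none lower, background 3.03%). Ier3 was above all arrays, 754 CPM against 283, 317 and 617 CPM, and Dusp1 below them, 547 CPM against 1010.5, 653 and 1063 CPM. At this border Dusp1 was thus below the arrays in neutrophil-like as in C1q macrophage-like cells, and Ier3 below them in neutrophil-like and above them in C1q macrophage-like cells. In B-like cells Dusp1 was again below the arrays, 308 CPM against 932, 714 and 629 CPM, the 1 of 7 members past 2-fold lower (background 5.32%). Dusp1 lay within the arrays in T or NK-like cells, 324 CPM against 284 to 582 CPM. In T or NK-like cells the 1 of 7 past 2-fold lower was Zfp36l1, 351 CPM against 482, 853 and 905 CPM (background 10.4%), from 26 UMIs at the border. Only 1 member passed 2-fold in each of these 3 classes, so nothing is read from these counts beside the backgrounds. Cells rich in satellite transcripts, which held few UMIs (median 347 per cell), had Dusp1 at 1012 CPM at the border of Tumor 1 and at 104, 866 and 95.4 CPM in its arrays.

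Smaller classes are given as levels alone. Krt tumor-like cells of Tumor 1, led by keratin genes, had 210.4, 339 and 177 CPM of Dusp1, 160.3, 240.0 and 192 CPM of Dusp6 and 296, 221 and 281 CPM of Ier3 in the 3 arrays. Dusp6, a known target gene of ERK, overlapped there with its level in neutrophil-like cells (196, 173 and 218 CPM). Dendritic-like cells of Whole Tumor 2 had 535, 888 and 1006 CPM of Dusp5 and 0, 0 and 9.68 CPM of Dusp6, of which 1 UMI was found in all 3 arrays. Endothelial-like cells had 2028 and 3306 CPM of Ier3 and 312 and 3444 CPM of Zfp36 in arrays 2 and 3 of Whole Tumor 2, from 11 and 16 cells. Fibroblast-like cells of array 3, 11 in number, had 1879.7 CPM of Zfp36l1, 1813 CPM of Zfp36 and 1096 CPM of Btg2. Alveolar type 2 or Sftp tumor-like cells, 12 in array 2 of Whole Tumor 1, had 589.5 CPM of Zfp36l1 and 411 CPM of Dusp1. RNA from broken neutrophils can add to other classes. S100a8 and S100a9 together give a limited measure of it. They reached at most 0.450% of their neutrophil-like level in B-like cells, 0.452% in T or NK-like, 0.194% in dendritic-like, 0.992% in endothelial-like, 1.06% in C1q macrophage-like, 1.87% in Krt tumor-like, 4.88% in ungated, 6.09% in alveolar type 2 or Sftp tumor-like and 7.52% in satellite-rich cells of any library. Both genes are markers of the neutrophil-like gate. A cell that picks them up can leave its own class for the neutrophil-like or ungated cells, so these values may be too low.

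Last, the genes whose pattern was most like that of Dusp1 and of Btg1 were listed over 31 sums of a class in a library, by Pearson's r of log2(CPM + 10) among 4995 genes. The sums share libraries and classes, so r is a description. Among the 5 nearest to Dusp1 were Atf3 (0.89), Ier5 (0.89), Csrnp1 (0.88) and Ppp1r15a (0.87), of which Atf3 is on the dissociation list. Nearest to Btg1 were Pim1 (0.89), Tiparp (0.87), Lmnb1 (0.87), Plk3 (0.84) and Stk17b (0.84). Among the members, Dusp1 went most with Zfp36 (0.83), Btg2 (0.82) and Btg1 (0.75), less with Ier3 (0.40) with Zfp36l1 (0.31) and, least, with Dusp4 (-0.02).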

How the data were processed

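The authors deposited 1 table of UMI counts per library, genes by cell barcodes, for 2 border and 6 Whole Tumor libraries; the counts are raw. Per the submitters' processing notes, bcl2fastq 2.17.1.14, STAR 2.5.2b and mm10 were used. No table held columns of other samples. The members and all lists were chosen with earlier results of these data known. A macrophage class and single genes are not reported here.

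Barcodes with at least 200 genes were kept and gated on marker lists (at least 2 different markers, more than for any other class). Doublets were not called; leaving out cells with 2 or more markers of another class was an alternative. UMIs were summed per class and library (CPM: per 1000000 UMIs of that sum) and sums of at least 10 cells were used. Groups of arrays were compared with edgeR 4.0.16 (TMM, filterByExpr, quasi-likelihood test, Benjamini-Hochberg adjustment over all genes tested) in R 4.3.3 with limma 3.58.1; class comparisons had array as a term. DESeq2 1.42.0, library totals, no filter on low counts, other gates, at least 500 genes per cell and each array left out were the alternatives. Arrays of 1 tumor are technical, so p-values measure the spread between arrays, not between mice. Border against whole was described by folds over genes of at least 50 UMIs, with 2-fold and a value outside all arrays as the limit, and has no test. The named genes were the 10 members, the 3 genes of each pathway list with the most UMIs in neutrophil-like cells, and the 5 genes most like Dusp1 and Btg1. Il1a, the dissociation genes given with values and the genes that lead each class were named after their values were seen. The fits were tested on simulated counts with known changes. Dissociation genes were Fos, Fosb, Jun, Junb, Jund, Egr1, Atf3, Hspa1a, Hspa1b, Hspe1, Dnajb1, Hsph1, Nr4a1 and Socs3. Python 3.11.15, numpy 2.4.6, pandas 2.3.3, scipy 1.17.1 and matplotlib 3.10.9 were used for sums, intervals and plots.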

Additional observations from a re-analysis of the deposited data

Results flagged for a closer look

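The direction of border against whole was opposite in the 2 tumors for 7 members in neutrophil-like cells, with the border above all arrays of Tumor 1 and below all arrays of Tumor 2. The log2 ratio of Tumor 1 minus that of Tumor 2 was 3.51 for Dusp1, 2.26 for Ier3, 2.16 for Zfp36, 2.09 for Btg2, 1.89 for Zfp36l1, 1.48 for Dusp2 and 1.47 for Btg1. These differences were not tested, since each tumor gave 1 border library. For Dusp2 and Ier3, the counting interval of the border of Tumor 2 reached into the range of its arrays, and in mature-type cells alone both lay within the arrays of Tumor 2.

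The difference of C1q macrophage-like from neutrophil-like cells was unlike in the tumors in edgeR's interaction of class and tumor for Btg1 (2.56 on the log2 scale, Tumor 1 minus Tumor 2), Ier3 (1.87) and Dusp1 (1.75). The neutrophil-like arrays in it were among the values that chose the members, so no p is given.

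Cells that passed no gate are outside the comparisons above. At the border of Tumor 1 there were 34 of them, with 3112 CPM of Dusp1 against 179 to 248 in ungated cells of its arrays, 3335 CPM of Ier3 against 305 to 450.0, 1267 CPM of Zfp36 against 176 to 219.9 and 279.5 CPM of Dusp2 (15 UMIs) against 0 to 20.5. Their difference from the arrays has the direction of the neutrophil-like cells and was not tested. In Tumor 2 the ungated border cells had 486 CPM of Dusp1 and 479 CPM of Ier3, against 682, 969 and 888 and 541, 200.5 and 538 CPM in the arrays.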

How the results depend on the processing

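Over the members' log2 values and all alternatives, 866 of 972 values kept direction and call or moved by less than the spread of the arrays, 19 lost a call, 11 gained one, 52 border ratios moved by more, and 24 tested values changed sign, all of members not called in that comparison. Of the border ratios, which have no test, 19 changed sign, none of them of a member past 2-fold. The calls of members are counted here as a description, and the cause of these changes was not tested.

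Whole Tumor 1 over Whole Tumor 2: genes called higher went from 1091 to 2809 on library totals, 714 by DESeq2, 408 in mature-type cells and 663 to 955 with an array left out (fewest without array 3 of Tumor 2), and genes lower from 1230 to 621 on library totals and 414 in mature-type cells, where 5 of 9 members were lower. With array number as a replicate block, 941 genes were higher and 1220 lower. The 9 members, which have no test here, lay below 0 with this block and in mature-type cells. Arrays of equal number deviated together with r of 0.018, 0.066 and 0.0052 across genes, so the numbers do not pair the arrays.

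C1q macrophage-like cells: 429 to 799 genes higher and 436 to 821 lower with an array left out (fewest without array 3 of Tumor 2), 331 and 223 in Tumor 1 alone, where 0 members were lower by edgeR (2 at an unadjusted p under 0.05) against 8 in Tumor 2 alone; in Tumor 1 alone Dusp5 was 0.044, Zfp36l1 0.42 and Btg1 0.52, and Zfp36l1 was 0.17 on library totals and -0.12 to 0.076 with an array left out.

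T or NK-like cells: 809 genes higher on library totals, 237 to 620 with an array left out (fewest without array 3 of Tumor 2), 1415 lower with no filter; Dusp2 -0.055 by DESeq2, -0.49 with no filter, -0.32 with at least 3 markers and -0.49 to 0.30 with an array left out, Dusp5 0.28 on library totals, Zfp36l1 -0.33 with no filter. B-like cells: 926 genes higher on library totals, 340 with no filter, 247 to 628 with an array left out, 1381 lower with no filter, 539 to 870 with an array left out (both fewest without array 3 of Tumor 2); Dusp2 -0.36 to 0.78 with an array left out, Zfp36l1 -0.090 by DESeq2, -0.28 with no filter and -0.12 to 0.34 with an array left out.

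Siglec-F-type over mature-type: genes higher went from 29 to 69 on library totals, 10 by DESeq2, 51 with no filter, 47 with at least 500 genes per cell, 19 without shared or 1-base barcodes and 2 to 42 with an array left out, and genes lower from 113 to 68, 63, 68, 69 (at least 3 markers) and 16 to 128, with 1 to 4 members lower (fewest without array 2). Dusp6 was 0.20 on library totals, 0.18 with no filter, 0.089 without cells that carry markers of another class, 0.0070 without those barcodes and -0.55 to 0.34 with an array left out, Dusp5 -0.75 to 0.065 and Btg2 -0.67 to 0.013. Border: 8 members passed the fold higher in Tumor 1 and 4 lower in Tumor 2 on the TMM scale, 1 to 2 lower in Tumor 2 with an array left out (1, Dusp1, without the shallow array 2), 1 by the mean over cells, and 1 to 2 higher in C1q macrophage-like cells (2 without array 3).

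Depth limits Dusp2, Dusp4 and Dusp6 and every class but neutrophil-like and C1q macrophage-like cells, and leaving out an array of Tumor 1 leaves 1 such array in some class comparisons, whose spread is then taken from the others.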
